A study of Mus musculus with 4 samples.

Results

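Of the 12661 genes in the deposited table of injured and sham-operated PVAT, 58 were taken as the glutathione and antioxidant enzymes. They were chosen by symbol, with earlier results of these data known. The list holds the glutathione S-transferases, glutathione peroxidases, peroxiredoxins and every gene whose symbol starts with Txn. Added to these are *Sod1*, *Sod2*, *Sod3*, *Cat*, *Gclc*, *Gclm*, *Gss*, *Gsr*, *Nqo1*, *Srxn1*, *Nfe2l2* and *Keap1*. All 58 have a value in every library, and abundance is unknown, so no filter on low expression was applied. Perivascular adipose tissue (PVAT), the fat around a vessel, was collected as the outer tissues around the femoral artery of ovariectomized, wild type, female C57BL/6 mice (C57BL/6J in the study's methods), 11 weeks old by the labels. The sham group had a sham operation, and the injury group had a straight spring wire of 0.38 mm passed into the artery. Both were sampled 48 h later, with 2 libraries each. Both groups thus share the loss of the ovaries, and no male or intact female mice are in these libraries.

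Glutathione is a small thiol peptide that cells make in successive steps, oxidize when they reduce peroxides or couple to electrophiles, and regenerate with NADPH. Thioredoxin and the peroxiredoxins form a parallel thiol system that also draws on NADPH. Many genes of both systems are known targets of NRF2 (encoded by *Nfe2l2*), a transcription factor that KEAP1 holds at low level until oxidants or electrophiles modify it. In adipose tissue these enzymes meet peroxide made by mitochondria and by recruited phagocytes.

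NRF2 is known to bind the antioxidant response element, whose core is written TGACNNNGC. This core was searched on both strands in RefSeq promoters (build GRCm38.p6, 250 bases before to 50 after a start), of which 50 of the 58 members have an entry. It was present for 11 of these 50 members (22.0%), against 17.1% of the 9586 genes of the deposited table with a promoter and 12.4% of all 32851 promoters of this length. Both shares describe letters in this window, not sites in use, and the core overlaps the AP-1 motif TGACTCA where its free bases read TCA, as they do in *Prdx1*. The median difference between injury and sham was 0.084 on the log-like scale of the deposited values over the members with a match. It was 0.023 over those without, and both are small beside the median standard error of 0.15 over members. Of the 11 with a match, 6 had a higher mean after injury (50.9% of all genes). The lines that follow show the NRF2 gene itself and a member each of peroxide reduction, glutathione synthesis, thioredoxin reduction and conjugation. Each is printed 5′ to 3′ in the direction of the gene with the core, or its reverse complement, in capitals, and each matched mm9 (NCBIM37) once on its chromosome.
Prdx1 at chr4:116358056-116358094, plus strand: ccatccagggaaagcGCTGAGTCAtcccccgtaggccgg
Gclm at chr3:121948326-121948364, plus strand: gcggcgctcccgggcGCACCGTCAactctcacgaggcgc
Txnrd1 at chr10:82321844-82321882, plus strand: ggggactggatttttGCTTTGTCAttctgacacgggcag
Mgst1 at chr6:138088977-138089015, plus strand: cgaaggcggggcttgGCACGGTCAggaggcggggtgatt
Nfe2l2 at chr2:75542937-75542970, minus strand: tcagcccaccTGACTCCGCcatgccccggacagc

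The cores lie at -133 (*Prdx1*), -134 (*Gclm*), -92 (*Txnrd1*), -56 (*Mgst1*) and -240 (*Nfe2l2*) from the RefSeq start, counted to the first base of the core as printed. The window was 300 bases, sequence beyond it was not searched, and the promoter of *Nqo1* has no match within it. Its 250 bases before the start are shown because *Nqo1* was the member that passed the test, with the TATAAA sequence at -29 in capitals. TATAAA occurs on either strand in 13.6% of all promoters and in a promoter of 9 of the 50 members with an entry. The former counts promoters and the latter counts members, so they are not directly comparable.
Nqo1 at chr8:109927106-109927355 of mm9, minus strand: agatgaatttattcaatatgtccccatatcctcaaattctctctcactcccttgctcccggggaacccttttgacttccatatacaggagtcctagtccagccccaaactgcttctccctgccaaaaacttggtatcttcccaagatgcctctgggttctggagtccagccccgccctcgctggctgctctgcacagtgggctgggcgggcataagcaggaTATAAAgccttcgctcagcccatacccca

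The values are signed numbers in the authors' units, here called deposited units. They behave like logarithms of unstated base, with library medians from -0.0062 to -0.0028. They are not centred on the mean of each gene over these libraries, since all 4 values lie on one side of 0 for 23.7% of all genes and for 10 members. What 0 stands for is not stated in the sources used here, so libraries are compared within a gene and the values are not used to compare one gene with another. Differences are injury minus sham by limma with their standard error (SE), and adjusted p-values are Benjamini-Hochberg values over all 12661 genes with a threshold of 0.05. For a single gene, the smallest p an exact permutation test over these 4 libraries allows is 0.333, so each adjusted p rests on limma's sharing of variance between genes. The read depth of the libraries is unknown. Whether each library came from 1 animal is not stated in the sources used here, so the p-values measure the spread between these libraries.

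After injury, *Nqo1* fell and no other member passed the threshold. NQO1, a cytosolic enzyme that reduces quinones by 2 electrons at a time and is a classical NRF2 target, read 0.34 and 0.48 in sham tissue but -0.90 and -0.85 in injured tissue. The injury libraries lay far below both sham libraries and close to each other. The mean was 0.41 ± 0.10 (SD, n = 2) after sham operation and -0.87 ± 0.037 (SD, n = 2) after injury. The difference was -1.28 deposited units (SE 0.14, adjusted p = 0.0285 by limma), the 195th lowest of the 12661 genes. *Nqo1* is on chromosome 8 of mm9 from 109912125 to 109927106 on the minus strand. Removing 1 library at a time kept the difference of *Nqo1* from -1.36 to -1.21. Its call was lost when sham replicate 1 (adjusted p = 0.176, limma) or sham replicate 2 (adjusted p = 0.113, limma) was removed.

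Thus 1 of the 58 members was called lower (1.72%), against a background of 3.67% of all genes, and 0 were called higher, against 3.76%. In either direction 7.43% of all genes were called. Quantile normalization or scaling the libraries to one spread gave 3 called members (5.17%), *Txn2* and *Prdx5* being added as higher, against 8.38% and 8.65% of all genes in those fits. At an unadjusted p under 0.05, 13 members were higher and 5 lower, *Nqo1* among them, where 14.8% of all genes were higher and 14.8% lower. These are 22.4% and 8.62% of the members. At an adjusted p under 0.1 there were 10 members (17.2%, background 18.3%), with 9 higher (15.5%, background 9.21%) and 1 lower (background 9.09%). The groups did not overlap in 31 members (53.4%, background 61.9%). Both injury libraries were above both sham libraries in 20 members (34.5%, background 31.6%) and below them in 11 members (19.0%, background 30.3%). The median difference of the members was 0.071 deposited units, and that of all genes was 0.0085. With injury replicate 1 removed the members' median was 0.041, and with injury replicate 2 removed it was 0.047. An absolute difference under 0.5 deposited units was found for 45 of the 58 members (77.6%), and for 75.6% of all genes.

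**Figure D1:**
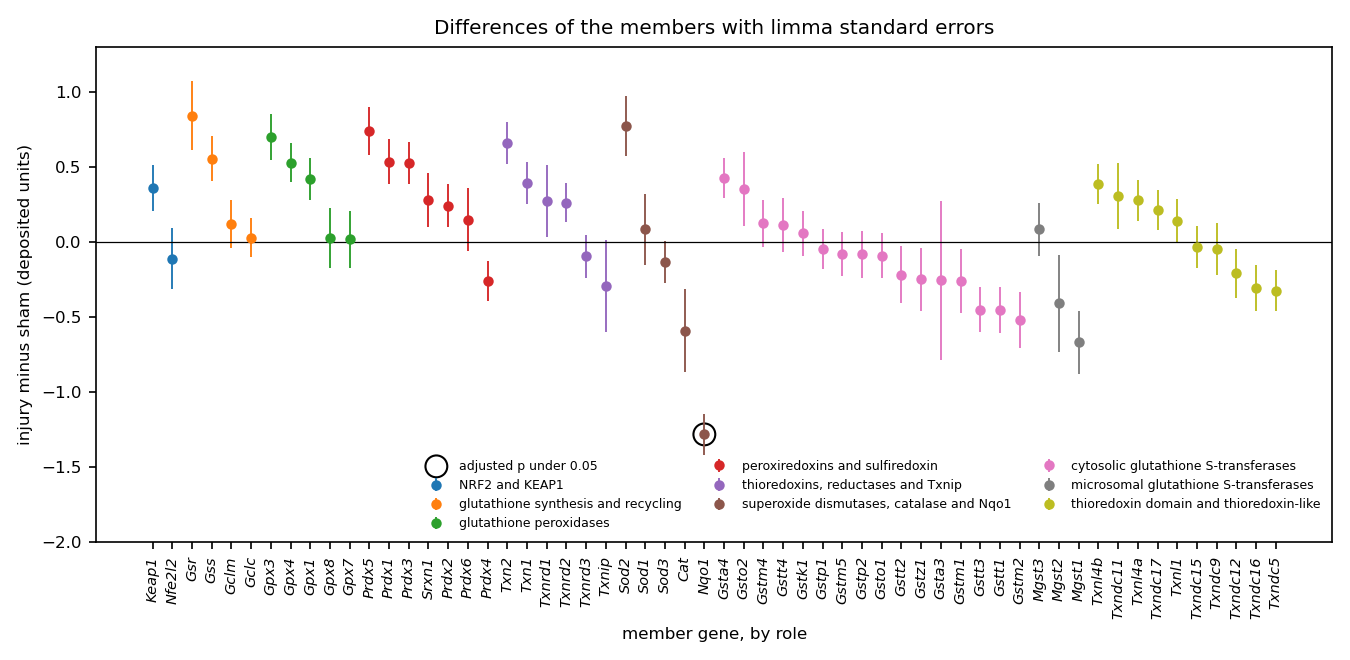
Injury minus sham difference of each of the 58 members in deposited units, with bars of 1 limma standard error, coloured by role and sorted within a role; a ring marks an adjusted p under 0.05. *Nqo1* at -1.28 is the single ringed gene, and the other members lie between -0.67 and 0.84.

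Of the regulators, *Nfe2l2* gave no consistent difference. The sham libraries were both at 0.031 and the injury libraries at 0.17 and -0.34, on either side of the sham values. The difference of -0.11 had a 95% interval from -0.62 to 0.39 (adjusted p = 0.751 by limma). *Keap1*, which encodes the adaptor that delivers NRF2 to degradation, was at -0.23 and -0.063 after sham operation and at 0.32 and 0.11 after injury. The groups did not overlap, but the difference of 0.36 did not pass the threshold (SE 0.15, adjusted p = 0.189 by limma).

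All 4 genes that make and recycle glutathione had higher means after injury, as did 50.9% of all genes, and none was called. *Gclc*, the catalytic subunit of glutamate-cysteine ligase, which makes the first and rate-limiting bond, stood at -0.053 and -0.038 in sham tissue and at -0.00077 and -0.037 in injured tissue. The 4 libraries lay close together, and the difference of 0.027 had a 95% interval from -0.30 to 0.35 (adjusted p = 0.908 by limma). *Gclm*, its modifier subunit, stood at 0.094 and -0.065 in sham tissue and at 0.26 and 0.00031 in injured tissue, which overlap, and its difference of 0.12 turned to -0.014 with injury replicate 1 removed. *Gss*, glutathione synthetase, which completes the peptide, was at -0.39 and -0.16 after sham operation and at 0.22 and 0.34 after injury. The groups were apart, with a difference of 0.56 (SE 0.15, adjusted p = 0.0828 by limma). *Gsr*, the reductase that regenerates glutathione with NADPH, was at -0.50 and -0.23 after sham operation. In the injury libraries it was at 0.76 and 0.19. Its difference of 0.84 was the highest of all members, but the injury libraries lay far apart and the adjusted p was 0.0830 (SE 0.23, limma). Without injury replicate 2 the difference of *Gsr* was 1.13 and the adjusted p 0.0240 (limma), and without injury replicate 1 it was 0.56.

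None of the 5 glutathione peroxidases was called. Their means were all higher after injury (50.9% of all genes), but the differences of *Gpx7* and *Gpx8* turned negative with injury replicate 2 removed. *Gpx3*, a peroxidase secreted into plasma, was at -0.49 and -0.56 after sham operation and at 0.048 and 0.30 after injury. These groups were well apart, and the difference of 0.70 came close to the threshold without passing it (SE 0.15, adjusted p = 0.0546 by limma). *Gpx4*, which reduces lipid hydroperoxides within membranes and restrains ferroptosis, was at -0.21 and -0.23 after sham operation and at 0.27 and 0.35 after injury. Its replicates were close together and its difference was 0.53 (SE 0.13, adjusted p = 0.0709 by limma). *Gpx1*, the abundant intracellular peroxidase, was at -0.60 and -0.45 after sham operation and at -0.097 and -0.12 after injury, a difference of 0.42 (adjusted p = 0.120 by limma). *Gpx7* and *Gpx8*, peroxidases of the endoplasmic reticulum that carry cysteine in place of selenocysteine, differed by 0.018 and 0.023 with overlapping groups.

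The peroxiredoxins reduce peroxides, most of them with thioredoxin and PRDX6 with glutathione. Of the 6 members of the family, 5 had higher means after injury (50.9% of all genes). *Prdx5*, found in mitochondria, peroxisomes and cytosol, was at -0.47 and -0.33 after sham operation and at 0.48 and 0.20 after injury. The lower injury library was still above both sham libraries, and the difference was 0.74 (SE 0.16, adjusted p = 0.0545 by limma). *Prdx5* overlaps *Trmt112* on the opposite strand in the mm9 annotation, and whether the authors counted by strand is not stated in the sources used here. *Prdx3*, the mitochondrial peroxiredoxin, was at -0.044 and 0.094 after sham operation and at 0.49 and 0.61 after injury, a difference of 0.53 (adjusted p = 0.0801 by limma). *Prdx1*, the main cytosolic form, whose promoter core is printed above, was at -0.57 and -0.42 after sham operation and at 0.13 and -0.050 after injury. Its difference was 0.54 (SE 0.15, adjusted p = 0.0857 by limma). *Prdx4*, the form of the endoplasmic reticulum, lay the other way, at -0.28 and -0.18 after sham operation and at -0.52 and -0.46 after injury, and its difference of -0.26 was not called (adjusted p = 0.260 by limma). *Srxn1*, sulfiredoxin, which repairs overoxidized peroxiredoxins and is a known NRF2 target, was at -0.38 and -0.44 after sham operation and at 0.069 and -0.34 after injury. The groups were just apart, and the difference of 0.28 was 0.075 with injury replicate 1 removed. *Prdx2* differed by 0.24 with no overlap and *Prdx6* by 0.15 with overlap. The difference of *Prdx6* ran from -0.11 to 0.41 when 1 library was removed.

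**Figure D2:**
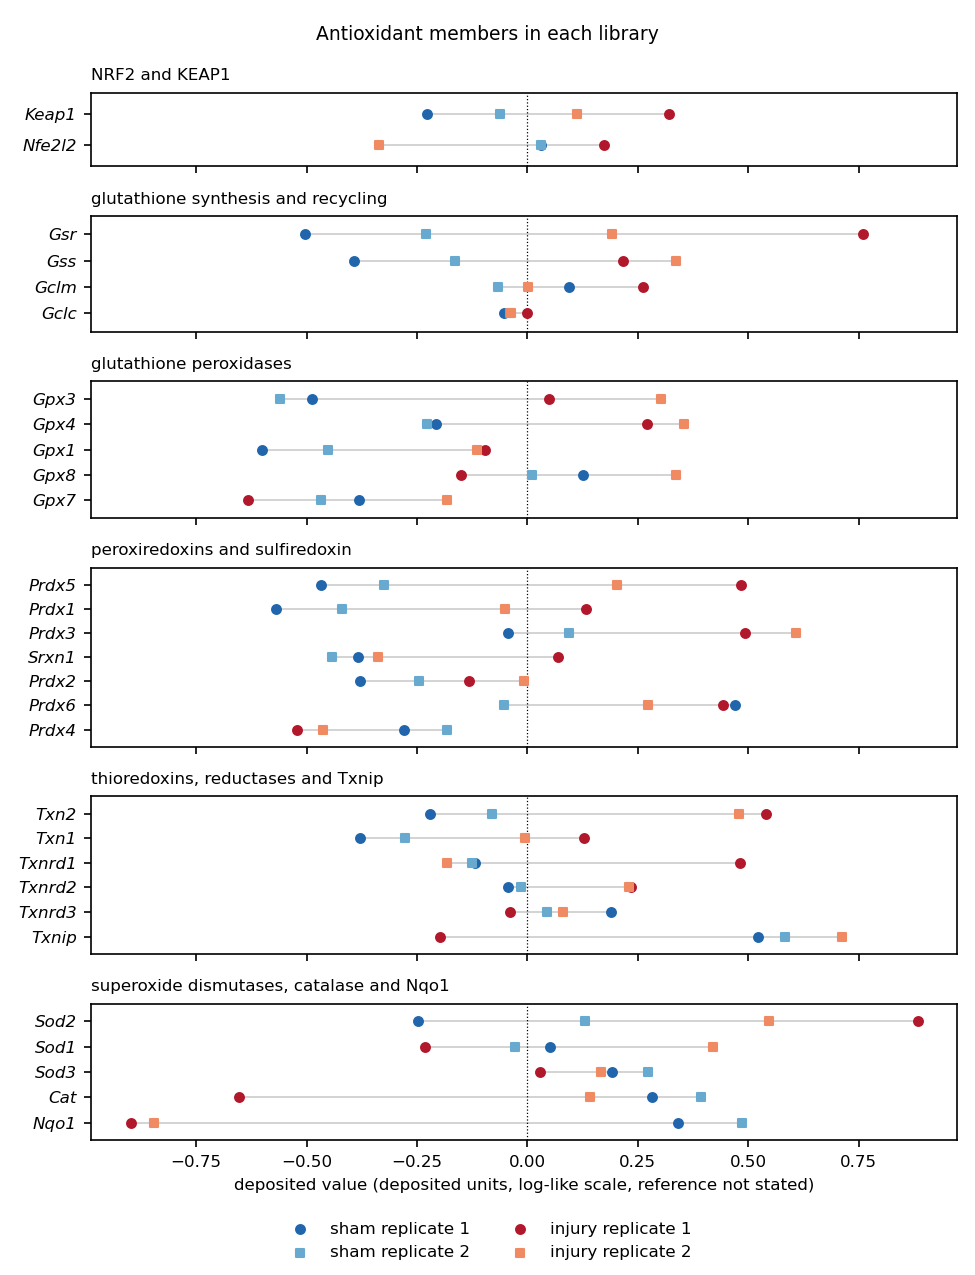
Deposited value of each library for the members outside the transferases and thioredoxin-like genes, by role; circles are replicate 1, squares replicate 2, blue shades sham, red and orange injury, and a grey line spans the 4 libraries. *Nqo1* has both injury libraries near -0.87 and both sham libraries near 0.41, while *Nfe2l2*, *Sod1* and *Txnip* have injury libraries on either side of the sham libraries.

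In the thioredoxin system, *Txn2* and *Txnrd2*, the thioredoxin and the reductase of mitochondria, had groups that did not overlap. Those of the cytosolic *Txn1* did not overlap either, and neither did those of 61.9% of all genes. *Txn2* was at -0.22 and -0.080 after sham operation and at 0.54 and 0.48 after injury. Its difference was 0.66 (SE 0.14), and it was the member closest to the threshold outside *Nqo1* (adjusted p = 0.0513 by limma). *Txnrd2* was at -0.045 and -0.015 after sham operation and at 0.24 and 0.23 after injury, a difference of 0.26 (adjusted p = 0.248 by limma). *Txn1*, the cytosolic thioredoxin, was at -0.38 and -0.28 after sham operation and at 0.13 and -0.0051 after injury, a difference of 0.39 (adjusted p = 0.141 by limma). *Txnrd1*, the cytosolic reductase and an NRF2 target, was at -0.12 and -0.13 after sham operation, and its injury libraries were at 0.48 and -0.18, on both sides of them. *Txnip*, which encodes a protein that binds and inhibits thioredoxin, stood at 0.52 and 0.58 in sham tissue and at -0.20 and 0.71 in injured tissue. Its injury libraries thus lay below and above the sham libraries, and the difference of -0.30 was no larger than its SE of 0.30.

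None of the superoxide dismutases, which turn superoxide into hydrogen peroxide, was called. *Sod2*, the manganese enzyme of mitochondria and a known target of NF-κB, was at -0.25 and 0.13 after sham operation and at 0.88 and 0.55 after injury. The groups did not overlap, and its difference of 0.77 was second to that of *Gsr* (SE 0.20, adjusted p = 0.0750 by limma). *Sod1*, the copper-zinc enzyme of the cytosol, stood at 0.050 and -0.029 in sham tissue, and its injury libraries at -0.23 and 0.42 enclosed them. *Sod3*, the extracellular form found in vessel walls, was at 0.19 and 0.27 after sham operation and at 0.029 and 0.17 after injury, a difference of -0.13 (adjusted p = 0.568 by limma) that ran from -0.20 to -0.065 when 1 library was removed. *Cat*, catalase of peroxisomes, was at 0.28 and 0.39 after sham operation and at -0.65 and 0.14 after injury. Both injury libraries were lower, by very unequal amounts, and the difference of -0.59 was not called (SE 0.28, adjusted p = 0.220 by limma). Without injury replicate 2 it was -0.99 and called (adjusted p = 0.0237 by limma), and without injury replicate 1 it was -0.20.

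The glutathione S-transferases couple glutathione to electrophiles. Of the 16 members whose symbol starts with Gst, 11 had a lower mean after injury (49.1% of all genes). None was called, and their median difference was -0.088. *Gstm2*, a mu class enzyme, was at 0.32 and 0.23 after sham operation and at -0.47 and -0.032 after injury, a difference of -0.52 (adjusted p = 0.140 by limma). With injury replicate 1 removed it was -0.31 (adjusted p = 0.335 by limma), and with injury replicate 2 removed it was -0.74 and called (adjusted p = 0.0477 by limma). The theta class genes *Gstt1* and *Gstt3* lie next to each other on chromosome 10 of mm9, *Gstt3* from 75236860 to 75244159 and *Gstt1* from 75246558 to 75261329, and had nearly the same difference. *Gstt1* was at 0.11 and 0.11 after sham operation and at -0.47 and -0.21 after injury (difference -0.45, adjusted p = 0.123 by limma). *Gstt3* was at 0.41 and 0.16 after sham operation and at -0.17 and -0.16 after injury (difference -0.45, adjusted p = 0.122 by limma). *Gstt4* and *Gstt2* of the same cluster had overlapping groups and differences of 0.11 and -0.22, and that of *Gstt2* ran from -0.41 to -0.022 when 1 library was removed. *Gsta4*, an alpha class enzyme with high activity for the lipid peroxidation product 4-hydroxynonenal, lay the other way. It was at -0.039 and -0.059 after sham operation and at 0.34 and 0.42 after injury, with a difference of 0.43 (SE 0.13, adjusted p = 0.107 by limma).

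The close copies of this family bear on these values. In the longest coding transcript of each member, 57.3% of the 100-base stretches of *Gstp1* occur in *Gstp2* and 57.7% of those of *Gstp2* in *Gstp1*, so reads could have been split or left out. Their differences were -0.049 and -0.083. For *Gstt3* the share was 23.9%, with a second gene model annotated on the same strand, and for *Gstm1* it was 1.68%, with *Gstm3*. Across all members 6 share such a stretch with another coding gene, and copies among pseudogenes were not examined. In the mm9 annotation 14 members overlap another coding gene.

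The microsomal transferases are membrane proteins of a separate family. *Mgst1*, whose promoter core is printed above, was at 0.19 and 0.32 after sham operation and at -0.69 and -0.15 after injury. Both injury libraries were lower, and the difference of -0.67 was the lowest after that of *Nqo1* (SE 0.21, adjusted p = 0.111 by limma). Without injury replicate 2 it was -0.94 and called (adjusted p = 0.0271 by limma), and without injury replicate 1 it was -0.40 (adjusted p = 0.241 by limma). *Mgst2* stood at 0.054 and -0.46 in sham tissue and at -1.03 and -0.20 in injured tissue, and *Mgst3* had a difference of 0.084, both with overlap.

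**Figure D3:**
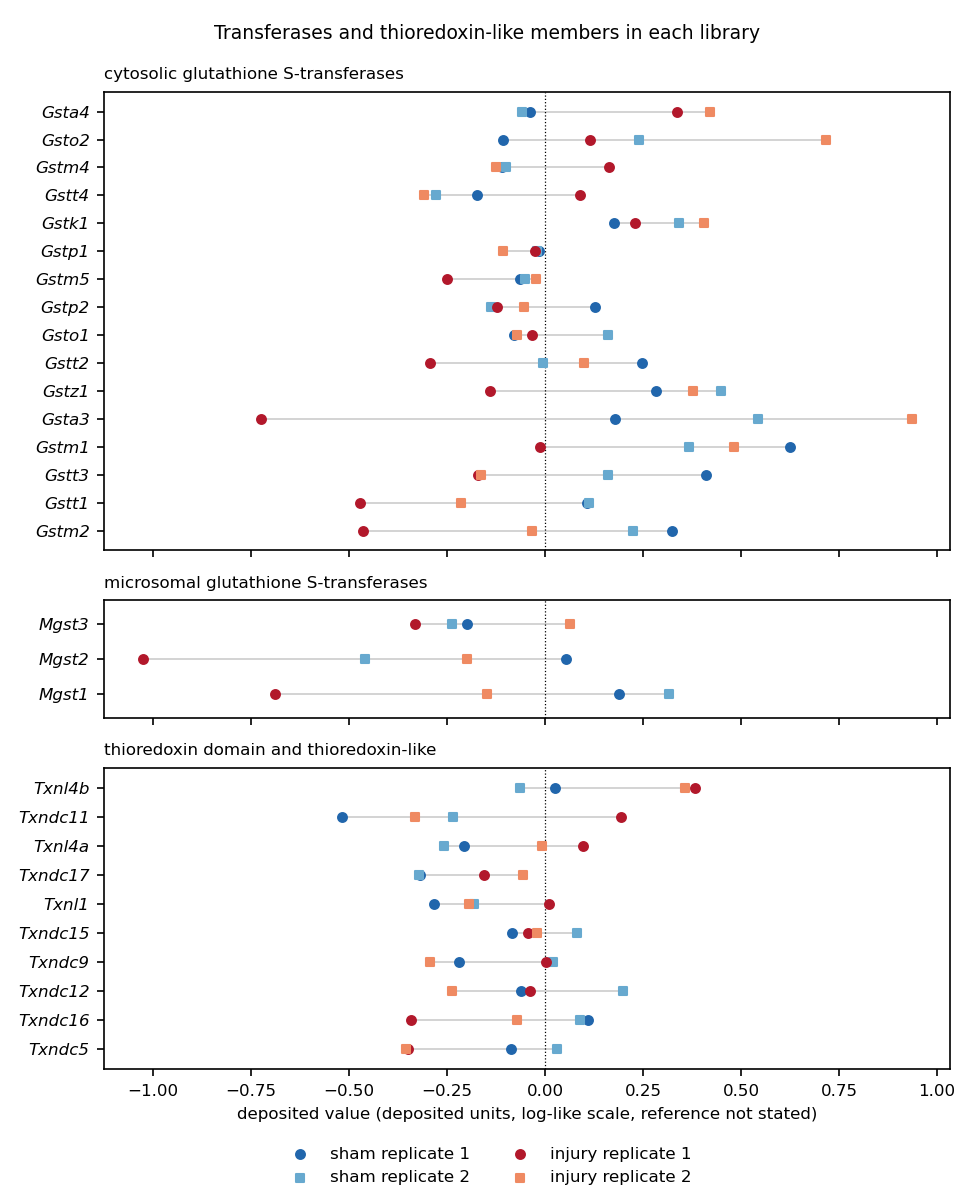
Deposited value of each library for the glutathione S-transferases, microsomal ones included, and the thioredoxin-like genes. The panel headed cytosolic holds every member whose symbol starts with Gst. Symbols and colours mark the library, and a grey line spans the 4 libraries. *Gsta3* has the widest spread, with injury libraries at -0.72 and 0.94, while *Gstm2*, *Gstt1*, *Gstt3* and *Mgst1* have both injury libraries below both sham libraries.

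Of the 10 remaining genes with a thioredoxin domain or a thioredoxin-like fold, none was called and 5 had groups that did not overlap, where 61.9% of all genes did not. *Txndc5*, an endoplasmic reticulum disulfide isomerase, was at -0.087 and 0.031 after sham operation and at -0.35 and -0.36 after injury, a difference of -0.32 (adjusted p = 0.183 by limma). *Txnl4b*, related to a protein of the spliceosome in spite of its thioredoxin-like name, was at 0.025 and -0.063 after sham operation and at 0.38 and 0.36 after injury, a difference of 0.39 (adjusted p = 0.130 by limma). The others differed by -0.31 to 0.31.

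The gap between the injury libraries was over 0.5 deposited units in 12 of the 58 members, and the gap between the sham libraries in 2 members. The corresponding shares of all genes were 13.9% and 8.32%. The widest gap was that of *Gsta3*, an alpha class transferase, at -0.72 in injury replicate 1 and 0.94 in injury replicate 2, with sham values of 0.18 and 0.54. Over all members, 26 were higher in injury replicate 1 and the rest in injury replicate 2. Removing injury replicate 2 gave 9 called members (15.5%), close to the 14.1% of all genes called in that fit, of which *Gsr*, *Prdx5* and *Sod2* were higher and *Nqo1*, *Cat*, *Gsta3*, *Gstm2*, *Mgst1* and *Txnip* lower. With injury replicate 1 removed, *Nqo1* was the member called (1.72%), against 2.24% of all genes.

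**Figure D4:**
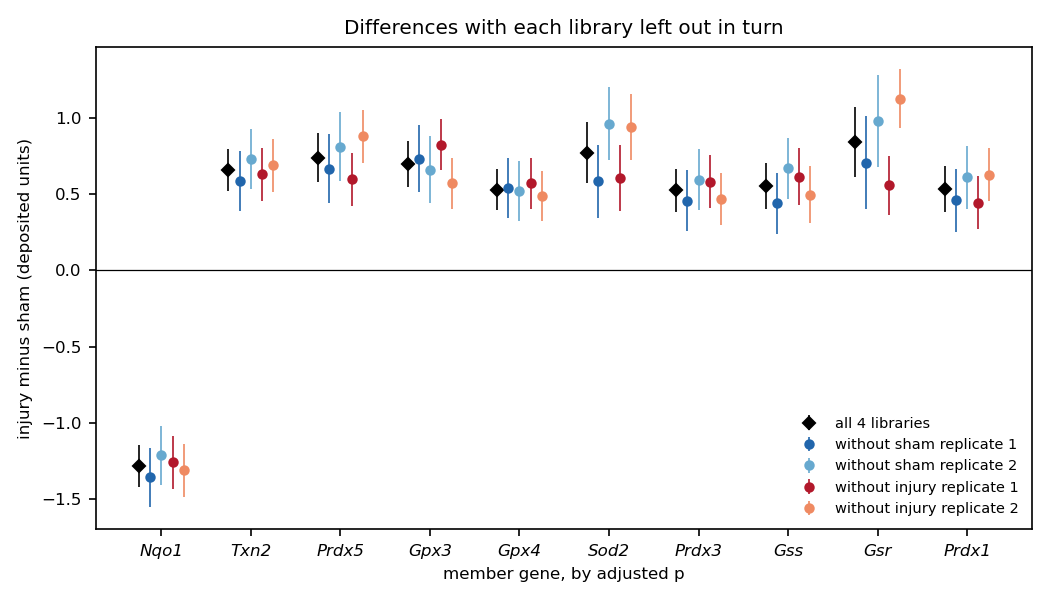
Injury minus sham difference of the 10 members with an adjusted p under 0.1, in deposited units with bars of 1 limma standard error, over all 4 libraries (black diamonds) and with each library left out. Every difference keeps its sign, *Nqo1* stays between -1.36 and -1.21, and *Gsr* moves from 0.56 to 1.13.

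The other genes of the pathway, 104 outside the members in 6 lists, gave 3 calls higher (2.88%, against 3.76% of all genes) and 2 lower (1.92%, against 3.67%), and their median difference was 0.051. Among 27 other genes known as NRF2 targets, 1 was called higher and 1 lower (3.70% each). *Slc7a11*, the cystine transporter that supplies cysteine for glutathione, was at -1.34 and -0.95 after sham operation and at 1.88 and 0.66 after injury. It rose by 2.41 deposited units (SE 0.41, adjusted p = 0.0346 by limma). *Ephx1*, microsomal epoxide hydrolase, was at 1.10 and 0.69 after sham operation and at -0.29 and -0.23 after injury. It fell by 1.15 deposited units (SE 0.18, adjusted p = 0.0317 by limma). *Ftl1*, ferritin light chain, and *Slc6a9*, a glycine transporter, differed by 0.80 and -0.97 without a call (adjusted p = 0.0665 and 0.0591 by limma). *Slc7a11* and *Nqo1*, both known as targets of NRF2, were thus called in opposite directions. Removing sham replicate 1 or sham replicate 2 ended the call of *Slc7a11* (adjusted p = 0.203 and 0.124, limma) and of *Ephx1* (adjusted p = 0.179 and 0.113, limma), and removing injury replicate 1 that of *Ephx1* (adjusted p = 0.0713, limma).

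**Figure D5:**
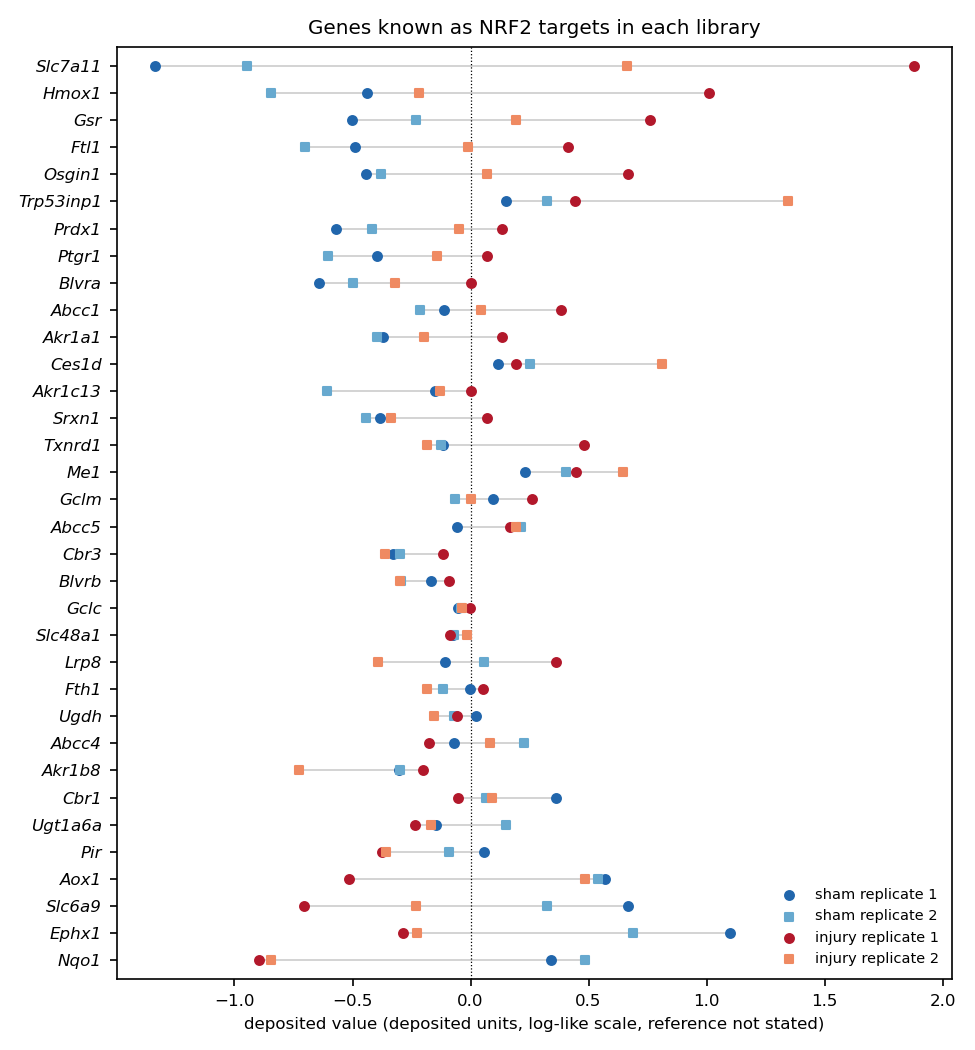
Deposited value of each library for 34 genes known as NRF2 targets, 7 members and 27 others, sorted by the injury minus sham difference. The 7 members (*Nqo1*, *Gclc*, *Gclm*, *Srxn1*, *Txnrd1*, *Prdx1* and *Gsr*) were picked by hand and need not be all the members that are targets. Over all 58 members, 33 had a higher and 25 a lower mean after injury. Symbols and colours mark the library. *Slc7a11* is at the top with a difference of 2.41 and *Nqo1* at the bottom with -1.28.

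Glutathione and thioredoxin reductases both use NADPH, and of 16 genes listed for its supply 0 were called by limma (5 higher and 0 lower at an unadjusted p under 0.05, or 31.2% and 0%, against 14.8% of all genes in each direction). *Tkt*, *Pgls* and *Taldo1* of the pentose phosphate pathway had no overlap between groups and differed by 0.83, 0.70 and 0.46 (adjusted p = 0.0549, 0.0607 and 0.0898 by limma). *Pgd* of that pathway had no overlap either and differed by 0.61 (adjusted p = 0.157 by limma). *G6pdx*, the entry enzyme of the same pathway, named after its value was seen, differed by 0.071 (adjusted p = 0.828 by limma). Among 29 other genes listed for glutathione handling, 3 were called higher (10.3%, against 3.76% of all genes) and 0 lower (against 3.67%). They were *Slc7a11*, also counted above among the NRF2 targets, *Alox5ap* and *Glrx5*. *Alox5ap*, the leukotriene protein of leukocytes that belongs to the family of the microsomal transferases, rose from -1.18 and -1.26 to 0.73 and 0.29 (difference 1.73, adjusted p = 0.0285 by limma). *Glrx5*, a mitochondrial glutaredoxin of iron-sulfur cluster assembly, rose from -0.35 and -0.33 to 0.34 and 0.48 (difference 0.75, adjusted p = 0.0407 by limma). *Alox5ap* lost its call without either sham library (adjusted p = 0.176 and 0.113, limma), and *Glrx5* without any 1 of the 4 libraries (adjusted p from 0.0556 to 0.234, limma) and with a replicate block (adjusted p = 0.0633, limma). The 12 partners of NRF2 gave 0 calls (2 higher and 1 lower at an unadjusted p under 0.05, or 16.7% and 8.33%). *Bach1*, which competes with NRF2 at its elements, had the lowest adjusted p of them, with a difference of 0.81 (adjusted p = 0.0809 by limma).

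Marker genes of other cell types moved with the groups in the same libraries. Fewer cells of a type and less RNA per cell cannot be told apart in bulk tissue. Over all genes 3.76% were called higher and 3.67% lower. Of 13 macrophage markers 7 were called higher (53.8%), with list medians of -1.12 and -1.13 in sham tissue and of 0.36 and -0.19 in injured tissue. Of 7 neutrophil markers 2 were called higher (28.6%, medians -1.34 and -0.97 against 1.22 and 0.18). Of 11 brown adipocyte markers 7 were called higher (63.6%, medians 0.59 and 0.89 against 1.75 and 1.73). All 12 markers of adipocytes in general have values, although their abundance cannot be read from them. Of these 12, 1 was called lower (8.33%, medians 0.26 and 0.34 against -0.15 and 0.29). At an unadjusted p under 0.05, 4 were lower and 1 higher (33.3% and 8.33%, against 14.8% of all genes in each direction). Markers of smooth muscle (4 of 8 called lower, 50%), endothelium (3 of 10, 30%) and fibroblasts (4 of 10, 40%) had list medians of -2.10, -0.71 and -0.60 for the difference. Skeletal muscle markers had 0 of 7 called (1 higher and 3 lower at an unadjusted p under 0.05) and a median difference of -0.74. Erythroid markers had 0 of 3 called (3 higher at an unadjusted p under 0.05) and a median difference of 1.34. These counts depended on both sham libraries, since no more than 1 gene of the whole table was called when either of them was left out, and without injury replicate 1 the calls over the table fell from 941 to 284. The part of these cell types in the values of *Nqo1* and of the other members was not tested.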

How the data were processed

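RNA-seq libraries of the outer tissues around the femoral artery (2 sham, 2 injury) were prepared by the authors with a stranded kit for mRNA. By the study's methods and the submitters' processing notes the authors used Cutadapt 1.18, Trimmomatic 0.39, STAR 2.6.0a on mm9, featureCounts and DESeq2 1.28.0. The values deposited by the authors are a signed score per gene and library, not counts. They run from -2.27 to 6.45 and are log-like. The step that made them is not given in the sources used here, so depth per library is unknown and no interval on counts is given.

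Members and gene lists were chosen with earlier results of these data known. limma 3.58.1 in R 4.3.3 (lmFit, eBayes, group as the only term, 2 residual and 3.48 prior degrees of freedom) was fitted to all genes with Benjamini-Hochberg adjustment. It was tested on simulated data for injury minus sham, in 20 runs over 12661 genes with 200 genes changed per run. The test called 91.4% of genes raised by 2 units, 23.7% of genes lowered by 1 unit and on average 6 unchanged genes. The real libraries gave 941 called genes, so these shares need not hold for them. Values of every library are given for called members, for members listed singly in the rule and for the 15 others with the largest difference and no overlap. Up to 4 genes per pathway list with the smallest adjusted p are named, and *Prdx4*, *Txnrd1*, *Txnrd2*, *Txnip*, *Gsta3* and *Mgst2* were added after their values were seen. Positions come from GENCODE vM1 on NCBIM37, for all 58 members. Promoters came from RefSeq (GRCm38.p6), with no entry for *Gclc*, *Gsr*, *Gsta4*, *Gstt2*, *Prdx6*, *Sod3*, *Txnl1* and *Txnl4a*. The alternatives were a replicate block, quantile normalization, columns scaled to one spread, columns centred on their medians, identical rows counted once, a robust prior for the variances, a threshold of 0.1 and leaving out each library.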

Additional observations from a re-analysis of the deposited data

How the results depend on the processing

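Fits to all 4 libraries (replicate block, quantile normalization, columns scaled to one spread, columns centred on their medians, robust variance prior, identical rows counted once) turned the direction of 0 of the 58 members and kept *Nqo1* called, with an adjusted p by limma from 0.0231 to 0.0358. Quantile normalization and scaling to one spread gave 3 called members each (5.17%, against 8.38% and 8.65% of all genes), adding *Txn2* (adjusted p = 0.0468 and 0.0447, limma) and *Prdx5* (adjusted p = 0.0466 and 0.0459, limma). An adjusted p under 0.1 gave 10 members and 2317 genes. Same-numbered libraries share only a number (correlation of their deviations -0.094). With that number as a replicate block 684 genes were called against 941 without it, and 1 member in both fits.

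Leaving out 1 library gave 0 to 1790 called genes and 0 to 9 called members, the lone library being assumed to vary like the other group. Without sham replicate 1, where 0 genes were called, 1960 genes had an unadjusted p under 0.05. The direction of 38 members held in every setting, and in these fits it turned for the other 20, whose differences ran over these ranges: *Gclm* (-0.014 to 0.25), *Gpx7* (-0.21 to 0.24), *Gpx8* (-0.22 to 0.27), *Gsta3* (-1.09 to 0.58), *Gstk1* (-0.031 to 0.15), *Gstm4* (-0.020 to 0.27), *Gstm5* (-0.19 to 0.035), *Gsto1* (-0.21 to 0.029), *Gstp2* (-0.22 to 0.050), *Gstt4* (-0.085 to 0.31). The other ranges were those of *Gstz1* (-0.51 to 0.011), *Mgst2* (-0.82 to 0.0032), *Mgst3* (-0.11 to 0.28), *Nfe2l2* (-0.37 to 0.14), *Prdx6* (-0.11 to 0.41), *Sod1* (-0.24 to 0.41), *Txndc15* (-0.11 to 0.052), *Txndc9* (-0.19 to 0.10), *Txnip* (-0.75 to 0.16) and *Txnrd1* (-0.061 to 0.60). The depth of the libraries is unknown, so its limits on single genes cannot be given.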

Other observations

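Selenocysteine is carried by several members, among them the glutathione peroxidases GPX1, GPX3 and GPX4 and the thioredoxin reductases. Of 21 further genes for selenoproteins or for the synthesis of selenoproteins, 0 were called by limma (2 higher and 3 lower at an unadjusted p under 0.05, or 9.52% and 14.3%, against 14.8% of all genes in each direction), and their median difference was 0.0079. *Sepp1*, which encodes the plasma selenium carrier, was at -0.0093 and 0.15 in the sham libraries and at -0.57 and -0.29 in the injury libraries (difference -0.50, adjusted p = 0.118 by limma). *Selm*, a selenoprotein of the endoplasmic reticulum, differed by -0.66 (adjusted p = 0.0807 by limma). *Dio2*, the deiodinase that activates thyroid hormone and is also on the list of brown adipocyte markers, lay the other way, at 0.16 and 0.25 after sham operation and at 1.41 and 0.67 after injury (difference 0.84, adjusted p = 0.106 by limma).

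The methionine sulfoxide reductases, which repair oxidized methionine with thioredoxin, number 4 in the table. *Msrb3*, a form of the endoplasmic reticulum, was at 0.73 and 0.57 after sham operation and at -0.54 and -0.095 after injury. It fell by 0.97 deposited units (SE 0.19, adjusted p = 0.0468 by limma). It lost its call without either sham library (adjusted p = 0.254 and 0.152, limma), without injury replicate 1 (adjusted p = 0.0922, limma) and with a replicate block (adjusted p = 0.0649, limma). *Msrb1*, the selenoprotein of the family, was at -0.32 and -0.22 after sham operation and at 0.26 and 0.26 after injury, without a call (adjusted p = 0.0706 by limma). *Msra* and *Msrb2* were not called. *Hmox1*, heme oxygenase and a known NRF2 target, was at 1.01 in injury replicate 1 and -0.22 in injury replicate 2, against -0.44 and -0.85 in the sham libraries, and was not called (adjusted p = 0.167 by limma). *Hmox1* is named after its values were seen.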
